A study of Rattus norvegicus with 12 samples.

Results

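The colon of rats that underwent neonatal maternal separation (NMS) and then received the probiotic mixture VSL#3 (Group D, 4 rats, D9 to D12) was compared with the colon of rats that were normally handled and received placebo (Group C, 4 rats, C1 to C4). These are 8 of the 12 rats of the series, and all 30367 probes of the arrays that are not controls were considered. All were male Wistar rats of the same weight class and were gavaged daily from day 3 to day 60 with saline, which held VSL#3, a mixture of live probiotic bacteria, in Group D. The labels and the methods state different amounts of VSL#3. Rats of Group D were taken from their mothers for 180 min a day from day 2 to day 14. All rats had undergone colorectal distension (CRD), in which a balloon is inflated in the colon to measure visceral pain, and the tissue was taken at day 60. The remaining 4 rats, Group M (M5 to M8), underwent NMS and received placebo, and their values are given beside those of Groups C and D where they help. No normally handled rats given VSL#3 were on the arrays. A difference between Groups D and C can therefore not be assigned to NMS or to VSL#3.

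Each rat had an array of its own with 1 dye, and the RNA came from whole colonic tissue, a mixture of epithelium, muscle, nerves, vessels and immune cells. In such tissue, fewer cells of a type and less RNA per cell cannot be told apart. A level is given here as the log2 signal relative to the 75th percentile of the array, so that a difference of 1 is a 2-fold change and 0 is a well expressed probe. The 75th percentile of the signal was 1434 to 1825 in Group C, 1594 to 1743 in D9 to D11 and 1953 in D12, and 75.5% to 77.5% of spots were well above background. All 13 colonic epithelium markers were measurable, that is, well above background on all arrays of Group C or on all of D9 to D11. The arrays of Groups C and M lay on 1 slide and those of Group D on another, scanned second, so slide and group cannot be told apart in any comparison of Group D below. Rat D12, which the study left out, and rat C2 stood apart from the rats of their groups in genes of lymphocytes and neutrophils. Main values follow the study's choice and are those of D9 to D11 against C1 to C4, and D12 is given beside them. C2 was kept, so a rat that stood apart was left out of Group D only.

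Several systems named below have known roles in the stressed gut. Mucosal mast cells lie close to nerve endings in the colon, carry the high affinity receptor for IgE and store chymases, serine proteases that loosen tight junctions and act on nerves. Glucocorticoids, the hormones of the stress axis, act through a nuclear receptor that switches on a small group of sensitive target genes, and the same receptor sets the clock genes of peripheral tissues. Cells of the colon surface take up salt and water through channels and pumps, partly under the control of adrenal steroids.

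The mast cell protease genes of the rat lie in 1 cluster on chromosome 15, and the clearest grouped difference between Groups D and C lay in this cluster. The 250 bases before the start of 4 of them are shown because members of both kinds of promoter were higher in Group D. Sequences are those of RefSeq on the GRCr8 build, plus strand, 5′ to 3′. Capitals mark matches to GATAA, the core of the binding sites of the GATA factors, and to its reverse complement TTATC. They also mark the core promoter element TATAAA and its reverse complement TTTATA, so that both motifs were searched on both strands. The probe that the array files call Mcpt2 measures the transcript that RefSeq lists as Mcpt1, and the gene they call Mcpt1l4 is Mcpt1l3 in RefSeq.
Mcpt1, chr15:33841356-33841605: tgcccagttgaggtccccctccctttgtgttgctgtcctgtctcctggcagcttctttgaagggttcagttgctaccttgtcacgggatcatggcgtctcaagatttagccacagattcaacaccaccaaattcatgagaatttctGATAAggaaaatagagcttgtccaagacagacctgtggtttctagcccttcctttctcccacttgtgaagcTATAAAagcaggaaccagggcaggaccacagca
Mcpt1l3, chr15:33806396-33806645: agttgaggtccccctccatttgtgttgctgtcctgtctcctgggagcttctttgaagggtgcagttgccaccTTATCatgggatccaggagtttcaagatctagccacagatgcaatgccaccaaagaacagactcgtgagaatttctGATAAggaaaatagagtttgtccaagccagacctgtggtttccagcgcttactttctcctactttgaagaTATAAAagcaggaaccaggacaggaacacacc
Mcpt8, chr15:33769399-33769648: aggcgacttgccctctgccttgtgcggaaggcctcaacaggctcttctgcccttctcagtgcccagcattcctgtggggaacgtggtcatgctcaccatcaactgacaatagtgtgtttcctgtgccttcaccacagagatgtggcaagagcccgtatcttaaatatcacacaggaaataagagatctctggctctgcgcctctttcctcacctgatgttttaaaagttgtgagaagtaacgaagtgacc
Mcpt9, chr15:33827180-33827429: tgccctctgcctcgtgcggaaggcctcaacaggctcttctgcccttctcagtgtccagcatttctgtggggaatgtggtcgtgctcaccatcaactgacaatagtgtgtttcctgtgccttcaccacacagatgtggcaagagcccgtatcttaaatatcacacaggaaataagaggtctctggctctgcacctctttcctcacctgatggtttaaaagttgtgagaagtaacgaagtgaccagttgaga
The promoters of Mcpt1 and Mcpt1l3 were identical at 84.4% of aligned bases, and those of Mcpt8 and Mcpt9 at 90.3%, whereas Mcpt8 and Mcpt1 shared 48.3%. In Mcpt1 the nearest GATAA match lay 100 bases and the nearest TATAAA match 28 bases before the start, and in Mcpt1l3 these distances were 98 and 27 bases. Neither motif occurred in this window of Mcpt8 or Mcpt9. Of the 10 promoters of the family in the table, 6 held GATAA and 6 held TATAAA, beside 23.5% and 12.9% of the 33469 rat promoters in windows of this length.

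In comparison with Group C, few single probes of Group D stood out from the spread between rats. By limma, 2 of 30367 probes (0.00659%) reached an adjusted p of 0.05 or less, 1 in each direction. At the looser rule of an unadjusted p of at most 0.01, by which genes are called higher or lower below, 430 probes differed (1.42%), 205 of them higher (0.675%) and 225 lower (0.741%) in Group D. With D12 in the fit 510 probes passed this rule (1.68%), 192 higher (0.632%) and 318 lower (1.05%). The methods' criterion asks for an unadjusted p of 0.05 or less, both in the analysis of variance and after Tukey's comparison, and for a 2-fold change. By this criterion 112 probes differed (0.369%), 60 higher (0.198%) and 52 lower (0.171%). A probe is called level where the 95% confidence interval of the difference lay within 2-fold, and 24137 probes (79.5%) were level, or 87.6% of the 21387 measurable probes. A probe with a small difference can be level and also called higher or lower, so the counts of level and called genes overlap. With D12 in the fit 78.6% were level. D9 to D11 all lay above Group C at 3.54% of probes and all below it at 4.02%, so that 7.57% did not overlap in either direction, and 4.32% did not overlap when D12 was included. The median difference over all probes was -0.01.

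The mast cell genes were the list with the largest share of called members. Of 16 measured genes, 6 were called higher in Group D, at a background of 0.675% of probes, 0 were called lower, and 14 had a positive difference. The median difference was 1.0 on the log2 scale, beside -0.01 for all probes and 0.95 for the same list in Group M vs Group C. By rat, the median of the list relative to the mean of Group C was -0.10 to 0.20 in C1 to C4, 0.77 in D9, 1.20 in D10, 0.63 in D11 and 0.19 in D12. Rat D12 thus lay within the range of Group C, and with D12 in the fit the median was 0.77 and 3 of the 16 genes were called higher.

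Mcpt2, the chymase of mucosal mast cells, had log2 levels of -1.16, -1.64, -0.88 and -1.32 in C1 to C4 and of 0.37, 1.25 and -0.65 in D9 to D11, with -0.92 in D12. The first 3 rats of Group D lay above all rats of Group C and D12 lay among them. The difference of 1.57 ± 0.37 (SE) corresponded to 2.97-fold (adjusted p = 0.52 by limma), and Group M differed from Group C by 1.14. Ms4a2, the beta chain of the IgE receptor, measured -5.64, -5.23, -5.76 and -5.78 in Group C and -4.60, -4.36, -4.12 and -4.89 in D9 to D12. Here all 4 rats of Group D were above Group C, by 1.24 ± 0.19 in the 11 arrays (2.36-fold, adjusted p = 0.19). Hdc, the enzyme that makes histamine, was chosen for mention after its values were seen. It measured -3.85, -3.14, -4.35 and -3.70 in Group C and -2.61, -2.73, -2.82 and -2.49 in D9 to D12, again without overlap, with a difference of 1.04 ± 0.25 (adjusted p = 0.53).

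The proteases Mcpt8, Mcpt9 and Mcpt10 were called higher by 1.01 ± 0.18, 0.99 ± 0.22 and 1.06 ± 0.19. For Mcpt8, Group C measured 0.86, 0.76, 0.98 and 0.72, D9 to D11 measured 1.54, 2.32 and 1.67, and D12 measured 0.77. In each of these 3 genes D12 lay within the range of Group C, and with D12 none of the 3 passed the looser rule. The other mast cell genes were mixed. Kit, the receptor that mast cells need for survival, differed by 0.15 (95% interval -0.30 to 0.60), the transcription factor Gata2 by 0.14 (-0.26 to 0.54), the prostaglandin D synthase Hpgds by -0.11 (-0.43 to 0.21) and the tryptase Tpsb2 by -0.07 (-0.54 to 0.41). These 4 genes were level within 2-fold. Fcer1a, the alpha chain of the IgE receptor, differed by 1.08 (0.05 to 2.10), and the carboxypeptidase Cpa3 by 0.74 (0.12 to 1.36), neither of them called.

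All probes that the files describe as mast cell proteases of chromosome 15 were then pooled, a choice made after the values above were seen. These were 19 probes of 15 genes, between 34119235 and 34601559 of the rn4 build. Of the 19, 14 were called higher and 0 lower, 15 were measurable and the median difference was 1.21, beside 1.14 in Group M vs Group C. D9 to D11 were all above Group C for 14 of them, where 3.54% of all probes showed this. With D12 in the fit 7 were called higher, and the median of D12 relative to Group C was 0.05. D10 had the highest level of the rats of Group D at every probe of the plot of these proteases other than Mcpt4l1. The members are not independent: a probe of Mcpt1l4 matches a probe of RGD1562035 (mast cell protease 1-like 3) at 55 of 60 bases. A probe of RGD1565970 matches that of Mcpt8 equally well. The probes of Mcpt2, Mcpt9 and Mcpt10 match the probes of other members at 23 or 24 bases at most. Probes were compared only with each other and not with the transcripts of the family. Binding of these probes to other members was therefore not tested. Mcpt1, Mcpt3 and Mcpt4, named as in the files, were below background in all rats of Group C and above it in 1 of D9 to D11.

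**Figure D1:**
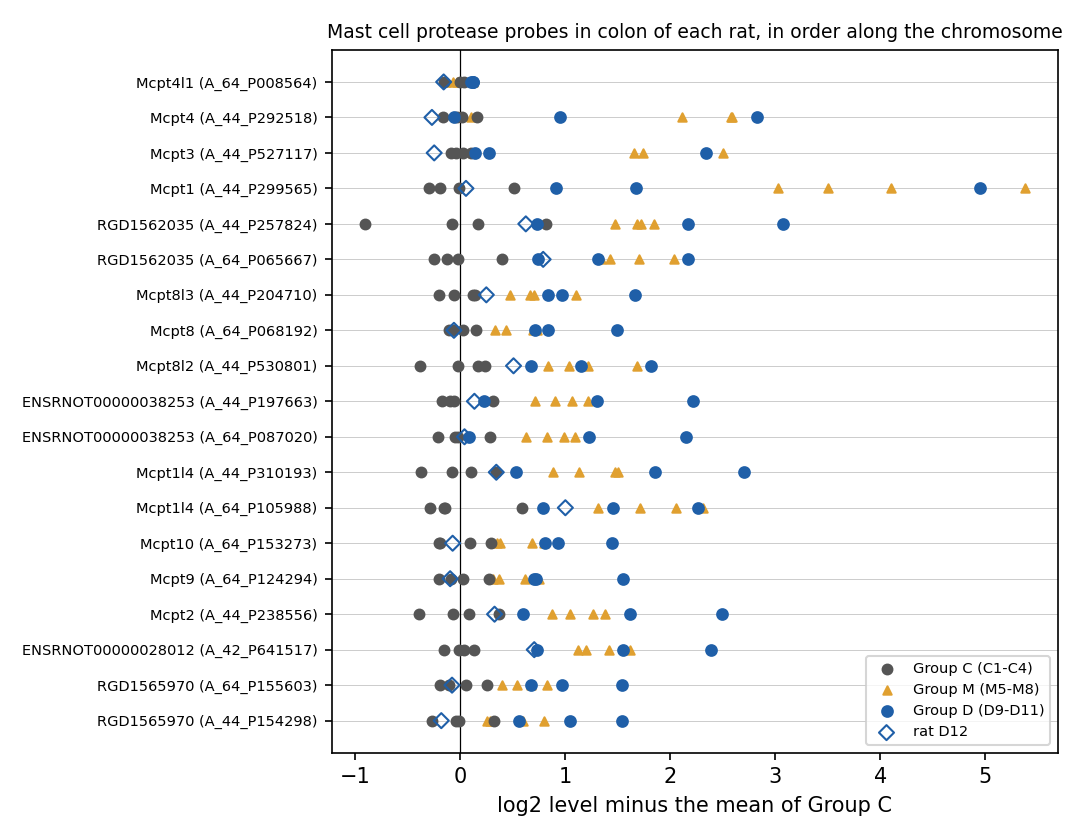
Level of each mast cell protease probe in every rat (log2, x axis, minus the mean of Group C), with probes in their order along chromosome 15. Grey points are Group C, orange triangles Group M, blue points D9 to D11 and open diamonds D12. At 14 of the 19 probes D9 to D11 lie above all rats of Group C, and D12 lies close to Group C, with a median of 0.05.

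The list of glucocorticoid genes holds receptors and steroid enzymes as well as target genes. Of its 17 genes, 2 were called higher (background 0.675%) and 10 were level. Fkbp5, a co-chaperone of the glucocorticoid receptor and one of its most sensitive targets, measured -0.10, 0.07, -0.38 and -0.94 in C1 to C4 and 1.28, 1.63, 1.89 and 2.17 in D9 to D12. The groups did not overlap and D12 was the highest. The difference was 1.94 ± 0.25, or 3.83-fold (adjusted p = 0.12 by limma), and in Group M it was 1.01. Zbtb16, a transcription factor that the receptor also switches on, measured -7.06, -7.40, -6.97 and -6.42 in Group C, where 2 of 4 arrays were well above background, and -5.29, -4.62, -3.23 and -4.48 in D9 to D12. Its difference was 2.58 ± 0.76 (adjusted p = 0.66), with 0.68 in Group M, and it no longer passed the looser rule without D10, D11 or any of C1 to C3. After another background correction (normexp) it was 0.99.

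The median difference over all 17 genes of the list was 0.10. Tsc22d3, another target of the receptor, differed by 0.57 (-0.06 to 1.21), and Sgk1, a kinase that acts on the sodium channel, by 0.40 (-0.42 to 1.23). The receptors themselves were level, Nr3c1 at -0.10 (-0.35 to 0.14) and Nr3c2 at 0.10 (-0.26 to 0.46), as was Hsd11b2, which inactivates corticosterone, at 0.12 (-0.53 to 0.77). Of the 18 clock genes, 1 was called higher and 7 were level. Per2, a repressor of the clock, measured -0.54, -1.44, -1.53 and -1.83 in Group C and 0.32, -0.36, -0.84 and -0.95 in D9 to D12. C1 lay among the rats of Group D, so the groups overlapped, and the difference of 1.04 ± 0.32 lost its call in 16 of the other settings. Among the genes not called, Arntl, an activator of the clock, differed by -0.97 (-1.85 to -0.09) and the output gene Dbp by 1.03 (-0.15 to 2.22). The rats of Group C themselves spread from 1.5 to 3.85 in Dbp and from -1.11 to 0.71 in Arntl. The labels do not give the hour at which tissue was taken, and its part in these values was not tested.

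**Figure D2:**
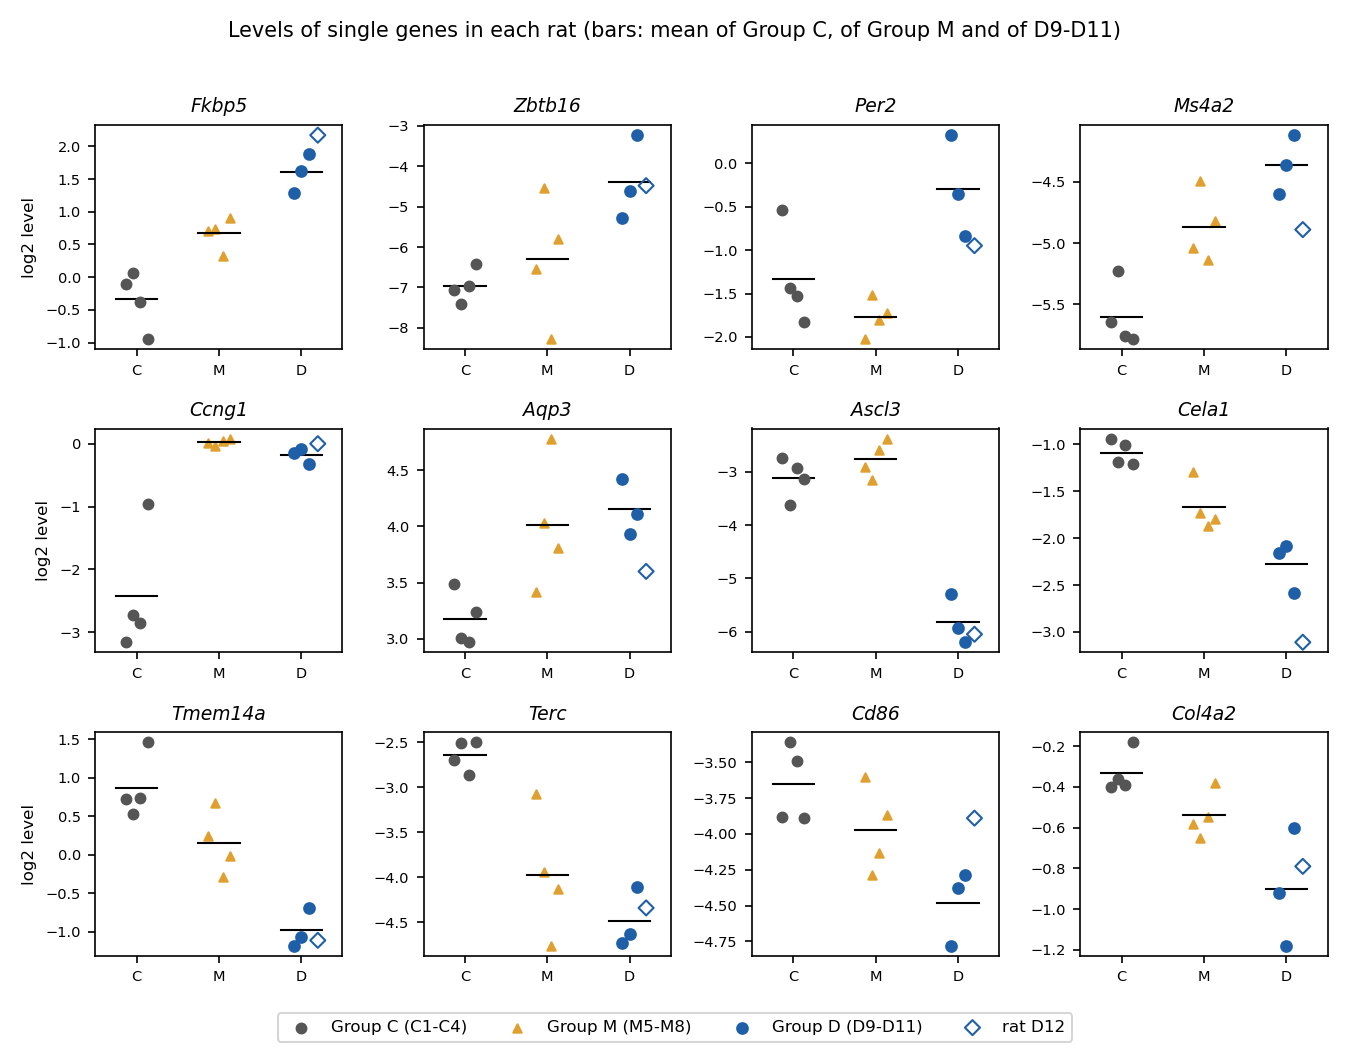
Log2 level of 12 named genes in each rat, by group. Grey points are Group C, orange triangles Group M, blue points D9 to D11 and open diamonds D12, and bars are the means of Group C, of Group M and of D9 to D11. Groups C and D, D12 included, do not overlap for Fkbp5, Ms4a2, Ascl3, Terc, Tmem14a, Cela1 and Col4a2, for example, whereas they overlap for Per2.

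The 2 probes past the adjusted threshold were Ascl3 and RGD1563516. Ascl3, a transcription factor of the achaete-scute family (probe at chr1:167345569-167345628, rn4), measured -2.75, -3.63, -2.93 and -3.14 in C1 to C4 and -5.30, -5.94, -6.20 and -6.05 in D9 to D12. All rats of Group D lay far below those of Group C. It fell by 2.70 ± 0.27 on the log2 scale, or 6.50-fold (adjusted p = 0.0256), while Group M differed from Group C by 0.35. RGD1563516, described in the files as similar to a histone, measured -5.16, -5.48, -5.55 and -5.45 in Group C and -4.08, -3.39, -3.74 and -4.69 in D9 to D12, a rise of 1.67 ± 0.17 (3.19-fold, adjusted p = 0.0256). Group M differed by 0.80. Both probes kept an unadjusted p of at most 0.01 in all other settings tried, but neither stayed at an adjusted p of at most 0.05 in all of them.

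The other largest rises among probes measured in all rats included genes that were also high in Group M. Ccng1, cyclin G1, a target of the tumour suppressor p53, measured -3.16, -2.73, -2.86 and -0.96 in C1 to C4 and -0.14, -0.09, -0.33 and 0.00 in D9 to D12. Rat C4 lay between the other controls and Group D. The difference was 2.24 ± 0.42 (4.72-fold, adjusted p = 0.29), with 2.45 in Group M. Of the 20 genes of the p53 list, 15 were level. These included Cdkn1a, the cell cycle inhibitor, at 0.12 (-0.24 to 0.47), Mdm2, the ligase that degrades p53, at 0.15 (-0.11 to 0.42), and Bax, which promotes cell death, at 0.00 (-0.32 to 0.32). The kinase Plk3 was called higher by 0.87 ± 0.27 and the death receptor Fas lower by 0.55 ± 0.15. A second probe of Fas differed by -0.18 (-0.83 to 0.48) and was not called. With D12 in the fit neither probe of Fas was called.

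Further named rises were LOC683761, similar to a class I molecule of the major histocompatibility complex (1.52 ± 0.43), Mmp25, a membrane bound matrix metalloproteinase (1.41 ± 0.43), RGD1564563, similar to a lectin receptor (1.41 ± 0.38), and Dapl1 (1.36 ± 0.37). In LOC683761 the levels split within the groups. Group C measured -0.44, -0.30, -0.14 and -0.01 and D10 and D11 measured 1.94 and 1.87, but D9 and D12 measured 0.07 and -0.14. With D12 in the fit LOC683761 was not called. Neither was Dapl1, in which D12 measured -3.20 beside -3.47 to -2.12 in Group C. Aqp3, a water channel of the colon surface, was called higher, with 3.49, 3.01, 2.97 and 3.24 in Group C and 4.42, 3.93, 4.11 and 3.60 in D9 to D12. Its difference was 0.98 ± 0.28, with 0.83 in Group M. With D12 in the fit it was 0.84 and just missed the looser rule. In the 11 arrays Aqp3 was the only called gene of the 23 salt and water transport genes, of which 19 had a positive difference and 11 were level. Chosen after their values were seen, the sodium channel subunit Scnn1g differed by 1.26 (0.30 to 2.22), the proton pump Atp12a by 1.72 (0.18 to 3.26) and the carbonic anhydrase Car4 by 0.95 (0.17 to 1.73), with D9 to D11 above Group C in each. None of the 3 was called in the 11 arrays, and Scnn1g was called with D12 in the fit. In D12, the median of this list was -0.70, below all rats of Group C.

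Among the falls, Terc, the RNA component of telomerase, measured -2.70, -2.51, -2.86 and -2.50 in Group C and -4.73, -4.63, -4.11 and -4.34 in D9 to D12. The difference was -1.84 ± 0.33 (3.59-fold lower, adjusted p = 0.28), and -1.33 in Group M. Tmem14a, a small membrane protein, measured 0.72, 0.53, 0.73 and 1.46 in Group C and -1.18, -1.07, -0.69 and -1.11 in D9 to D12, a difference of -1.84 ± 0.27 with -0.71 in Group M. Cela1, an elastase, measured -0.94, -1.19, -1.01 and -1.21 in Group C and -2.16, -2.08, -2.58 and -3.11 in D9 to D12, a difference of -1.19 ± 0.17 with -0.58 in Group M. In these 3 genes every rat of Group D was below every rat of Group C. Cela1 stands in the list of pancreatic acinar markers, of which 8 of 14 were not measurable and no other was called.

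The remaining lower genes were less even between the rats of Group D. LOC685106, similar to a ribosomal protein, measured 0.54 to 1.51 in Group C, -4.41 and -4.61 in D9 and D10, and 0.38 and 0.95 in D11 and D12, so that 2 of the 4 rats carry its difference of -3.89 ± 0.99. LOC499806 and the protocadherin Pcdhb12 were lower by 1.86 ± 0.42 and 1.24 ± 0.33 in the 11 arrays, and D12 also lay below all rats of Group C in both. Rab7b, a small GTPase of lysosomes, Lilrb3l and Pira2, both receptors of leukocytes, were lower in D9 to D11, with differences of -1.31 ± 0.36, -1.16 ± 0.34 and -1.12 ± 0.30. In D12 all 3 lay within or above the range of Group C, at -3.21 for Rab7b against -5.71 to -3.93 in Group C. A second probe of Lilrb3l differed by -0.16 (-1.22 to 0.89) and one of Pira2 by -0.25 (-1.01 to 0.50), neither of them called.

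Macrophage genes showed a small shift with few calls. Of 21 genes, 2 were called lower (background 0.741%), 1 was called higher, 13 were level and 2 had a positive difference, at a median of -0.26, with 0.33 in Group M. With D12 in the fit the median was -0.09 and 0 genes were called in either direction. Emr1, the surface marker F4/80, was lower by 0.47 ± 0.13 and the complement component C1qc by 0.35 ± 0.10. Both were also level within 2-fold. C1qc measured 0.71, 0.91, 0.71 and 0.85 in Group C, 0.42, 0.46 and 0.45 in D9 to D11 and 0.89 in D12, so that D12 was again within Group C, and in Emr1 D12 lay above all rats of Group C at -2.21. The called rise was the chemokine Ccl5, which T cells also make, with -0.97, -1.43, -1.09 and -1.14 in Group C, 0.27, -0.35 and -0.03 in D9 to D11 and -1.30 in D12 (1.12 ± 0.23, with -0.37 in Group M). Cd86, a costimulatory molecule of antigen presenting cells, was lower by 0.83 ± 0.20. It was the only called gene of the 14 in the MHC class II list, and it is not itself a class II molecule.

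Other lists had at most 1 called member. Col4a2, a collagen of basement membranes, was lower by 0.57 ± 0.14 and was called alone among 29 matrix genes, 23 of them level, and its partner Col4a1 differed by 0.04 (-0.30 to 0.37). Rbp4, a carrier of retinol, was lower by 0.54 ± 0.16, the only called gene of the 22 alcohol dehydrogenase and retinoid genes. Their median was -0.21 (-0.08 after normexp, -0.02 in Group M). In 5 of them D9 to D11 all lay below Group C (background 4.02%), and with D12 2 were called lower (background 1.05%). The list median was -0.19 to -0.17 in D9 to D11 and -0.34 in D12, beside -0.08 to 0.11 in Group C. The transcription factors Ascl2, of crypt stem cells, and Jund were higher by 0.92 ± 0.27 and 0.37 ± 0.10. In Ascl2, D12 measured -1.07 beside -1.19 to 0.06 in Group C, and with D12 in the fit Ascl2 was not called. Myl1, a myosin light chain of skeletal muscle, was higher by 0.90 ± 0.20 and was well above background in 2 of 4 rats of Group C. Ifi44l, induced by interferon, was well above background in all rats of Group C and in none of D9 to D11, but D12 measured -4.53 beside -5.96 to -4.61 in Group C. Its difference of -1.36 ± 0.39 lost its call in 9 of the other settings and came to -0.35 after normexp. Tlr8, a receptor of viral RNA, was well above background in all rats of Group C and in none of D9 to D12. Its difference of -0.76 ± 0.22 also lost its call in 9 settings and came to -0.17 after normexp. Values near background are uncertain, and no fold is given for these 2 genes. The probe of Il22 passed the looser rule at -0.56 without being above background in any rat of either group, and no fold is given.

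The respiratory chain, smooth muscle and endothelial genes were level within 2-fold between Groups D and C in the 11 arrays. In the respiratory chain, all 37 genes were level at a background of 79.5% of probes, with differences between -0.27 and 0.13. All 20 smooth muscle genes were level, between -0.32 for the cofactor Myocd and 0.30 for smoothelin (Smtn), and so were all 11 endothelial markers, between -0.49 and 0.08. With D12 in the fit, the same counts were 37, 20 and 10, and 1 endothelial marker was called lower. Within these bounds, only 6 of the 37 respiratory chain differences were positive. The median of that list was -0.08, and -0.19 with D12. In D12 itself it was -0.54 relative to the mean of Group C, below all rats of Group C (-0.22 to 0.13). The smooth muscle actin Actg2 measured 6.32, 6.41, 6.39 and 6.69 in C1 to C4 and 6.75, 6.60, 6.82 and 6.54 in D9 to D12. The groups overlapped, with a difference of 0.27 (-0.08 to 0.61). Of the genes of fatty acid oxidation and ketogenesis, 15 of 21 were level, fewer than the background share, and 0 were called. The subunit Atp5a1 of the ATP synthase differed by -0.10 and the endothelial marker Plvap by 0.02 (-0.23 to 0.26).

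Among lists of the epithelium, the nerves and MHC class I, some had level shares close to that of all probes and others lower ones. Of the enteric neuron and glia genes 19 of 23 were level, of the opioid and cannabinoid genes 14 of 16, of the MHC class I and antigen processing genes 15 of 18, of the squamous epithelium markers 10 of 11 and of the colonic epithelium markers 10 of 13. None of these 5 lists had a called gene. With D12 in the fit, 11 opioid and cannabinoid genes and 14 MHC class I and antigen processing genes were level, and the other counts were unchanged. Of the enteric neuron and glia genes 4 were not measurable, as were 3 opioid and cannabinoid genes and 4 squamous markers. A probe below background can count as level. All genes of the MHC class I and colonic epithelium lists were measurable, and of all measurable probes 87.6% were level. Lower shares were found for tight junction genes (13 of 19), mucin, goblet and antimicrobial genes (11 of 19), prostaglandin, nitric oxide and kinin genes (18 of 28), TRP channel and purinergic receptor genes (20 of 33) and serotonin genes (9 of 18). These 5 lists had no called gene either, and their other members were neither called nor bounded within 2-fold. With D12 in the fit, these counts were 14, 11, 16, 17 and 10 in the same order, and 1 TRP channel or purinergic receptor gene was called lower. Lgals4, an abundant lectin of enterocytes, measured 6.77, 6.75, 7.0 and 6.97 in Group C and 6.95, 7.01, 6.87 and 6.44 in D9 to D12, a difference of 0.07. The mucin Muc2 differed by -0.10 (-0.64 to 0.44), the junction protein Tjp1 by 0.06 (-0.26 to 0.38) and Cldn3 by 0.05 (-0.37 to 0.47). The adaptor Myd88 of Toll-like receptors differed by 0.00 (-0.27 to 0.26), Tlr4 by 0.04 (-0.25 to 0.33) and Rela, a subunit of NFkB, by -0.08 (-0.32 to 0.15). Of the 25 genes of that list 19 were level, and its median was -0.08, with 0.12 in Group M.

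**Figure D3:**
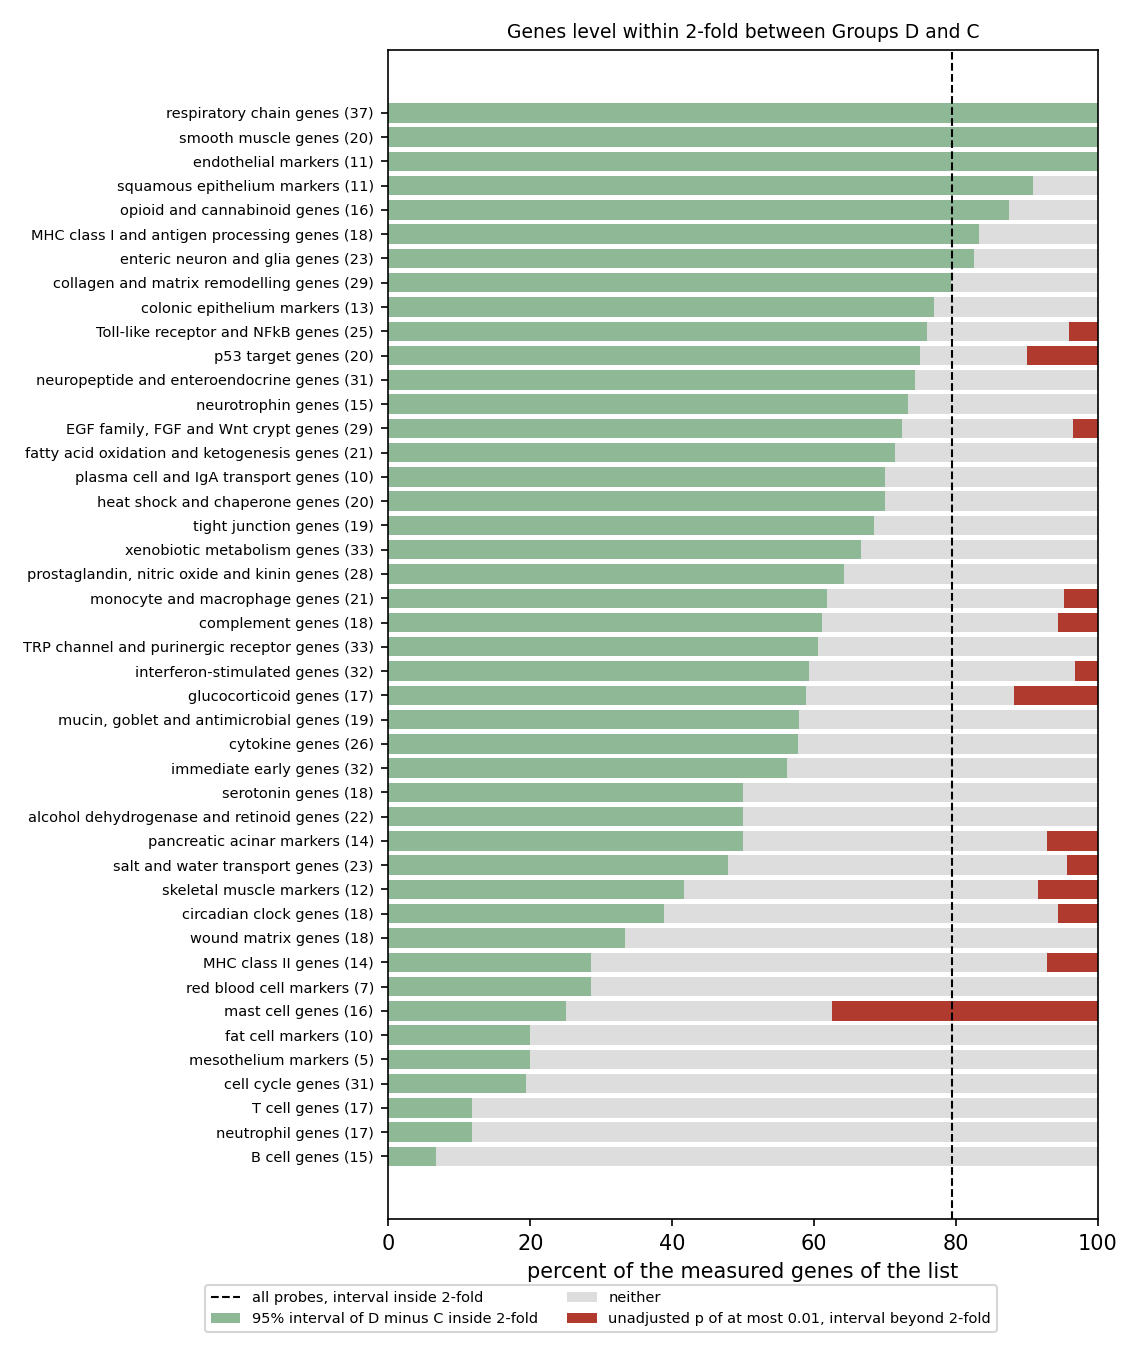
Share of the genes of each list (x axis, percent of the genes measured, whose number is in parentheses) whose 95% interval of Group D minus Group C lies inside 2-fold (green), that passed an unadjusted p of at most 0.01 with an interval beyond 2-fold (red), or neither (grey). The dashed line is the share of all probes inside 2-fold, 79.5%. Respiratory chain, smooth muscle and endothelial lists are level throughout, mast cell genes have the largest red share, and T cell, B cell and neutrophil lists are nearly all grey.

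For lymphocytes, neutrophils and dividing cells, the arrays could neither call nor bound a difference. Of 17 T cell genes 2 were level and 0 were called, of 15 B cell genes 1 and 0, of 17 neutrophil genes 2 and 0, and of 31 cell cycle genes 6 and 0. The median widths of the 95% intervals were 3.37, 4.54, 3.16 and 2.25 on the log2 scale, beside 0.80 over all probes. These widths are those of the fit without D12, which pooled the spread within Groups C, M and D. Single rats lay apart in Groups C and M, and D12 lay apart without adding to these widths. The median of the T cell genes relative to the mean of Group C was -0.79 to -0.33 in C1, C3 and C4 but 1.97 in C2, and -0.78, -0.15 and -0.33 in D9 to D11 but 2.70 in D12. B cell genes gave 2.59 in C2 and 4.00 in D12, where the other rats of the 2 groups lay between -1.35 and 0.05.

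The direction of these lists depended on the rats included. The median difference was -0.42 for T cells and -0.76 for B cells, and 0.10 and 0.15 without C2. With D12 in the fit it was 0.32 and 0.41. Neutrophil genes gave -0.12, and 0.18 without C2 and 0.31 with D12. Cell cycle genes gave -0.12, with 0.10 without C4 and 0.23 with D12. In Group M, the medians of these 4 lists were 0.87, 1.98, 1.75 and 1.21. Wound matrix genes, among them fibronectin (Fn1) at -0.09, had 6 of 18 level and none called, at a median of -0.18, with 0.09 without C2 and 1.22 in Group M. Fat cell and mesothelium markers were also mostly unresolved, with 2 of 10 and 1 of 5 level and medians of -0.57 and -0.74. The number of arrays limits the precision of all these values.

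**Figure D4:**
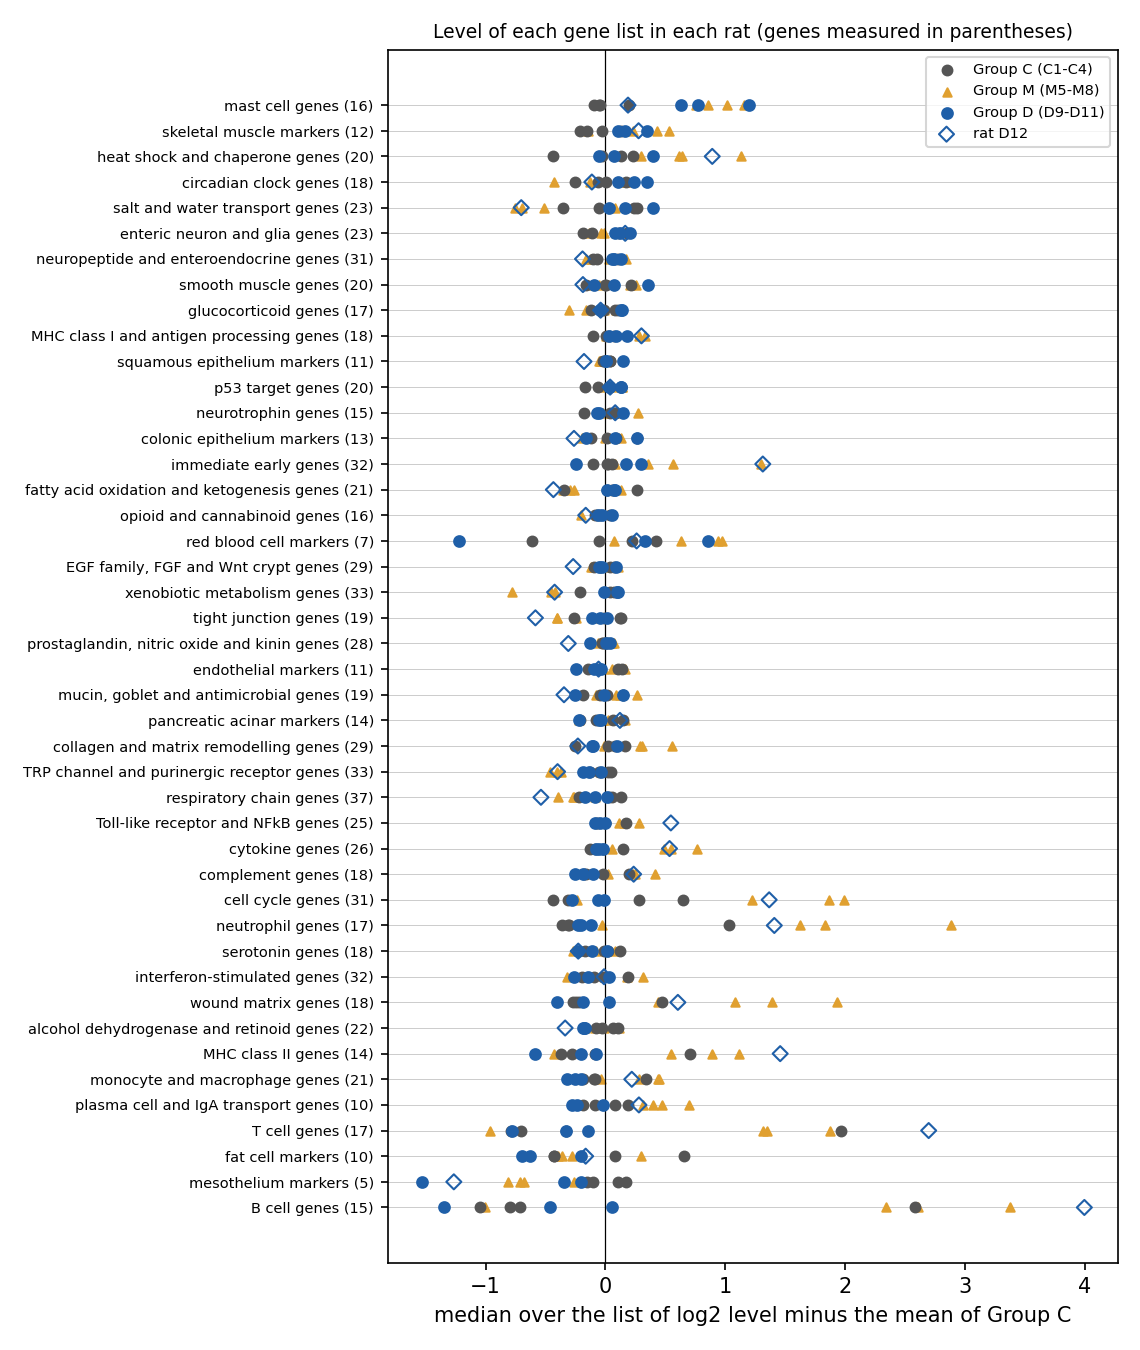
Median over each of the 44 lists of the log2 level relative to the mean of Group C (x axis), in each rat, with the number of genes measured in parentheses. Grey points are Group C, orange triangles Group M, blue points D9 to D11 and open diamonds D12. D9 to D11 lie above Group C for mast cell genes, and C2 and D12 lie to the right of the other rats of their groups for T cell, B cell and neutrophil genes.

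The study lists 30 probes for genes of visceral pain, which it chose on these same rats, so their values are not independent evidence. Of these, 29 were on the arrays analysed here. Between Groups D and C, 13 of the 29 were level (44.8%, where 79.5% of all probes were), 1 was called higher and 0 were called lower, and 21 were measurable. The called probe is the study's probe for the nociceptin receptor Oprl1. It measured -8.22, -8.72, -7.92 and -8.12 in Group C and -7.01, -6.95, -7.38 and -7.40 in D9 to D12, a difference of 1.13 ± 0.18 (adjusted p = 0.19), but no array of either group had it well above background, so no fold is given. The probe of Oprl1 in the opioid list differed by 0.04 (-0.40 to 0.47) and was below background in all rats too.

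The enzyme Tph1, which makes serotonin in the gut, was level at both of its probes. At one it measured -2.71, -2.64, -2.96 and -2.44 in Group C and -2.34, -2.32, -2.33 and -2.17 in D9 to D12, a difference of 0.36 ± 0.22 without overlap, and 1.06 in Group M. At the other the difference was 0.11, but D12 lay 0.90 above the mean of Group C, with 1.47 in Group M. The channel Trpa1 differed by -0.08 (-0.55 to 0.39), Trpv4 by -0.07 (-0.54 to 0.41) and the cannabinoid receptor Cnr1 by 0.04 (-0.56 to 0.64). In each of these genes D12 lay outside the range of Group C, at -1.01, 0.79 and -0.88 relative to its mean. Group M differed from Group C by -1.26, 1.02 and -0.92. The receptor P2rx4 was lower in all 4 rats of Group D at its own probe, by 0.74 ± 0.29 without a call, and called at -0.93 with D12, with -1.26 in Group M. The other probe that the study gives for P2RX4 is named Agtr1b in the files. Ccl2, a chemokine that attracts monocytes, differed by -0.83 (-2.59 to 0.93), while D12 lay above the other rats of both groups. Bdkrb1, the inducible bradykinin receptor, was well above background in 1 of 4 rats of Group C and 1 of D9 to D11, so its difference is not given. Ccl2 measured 2.73 in D12, 1.4 in C2 and between -1.57 and -0.55 in the other rats.

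**Figure D5:**
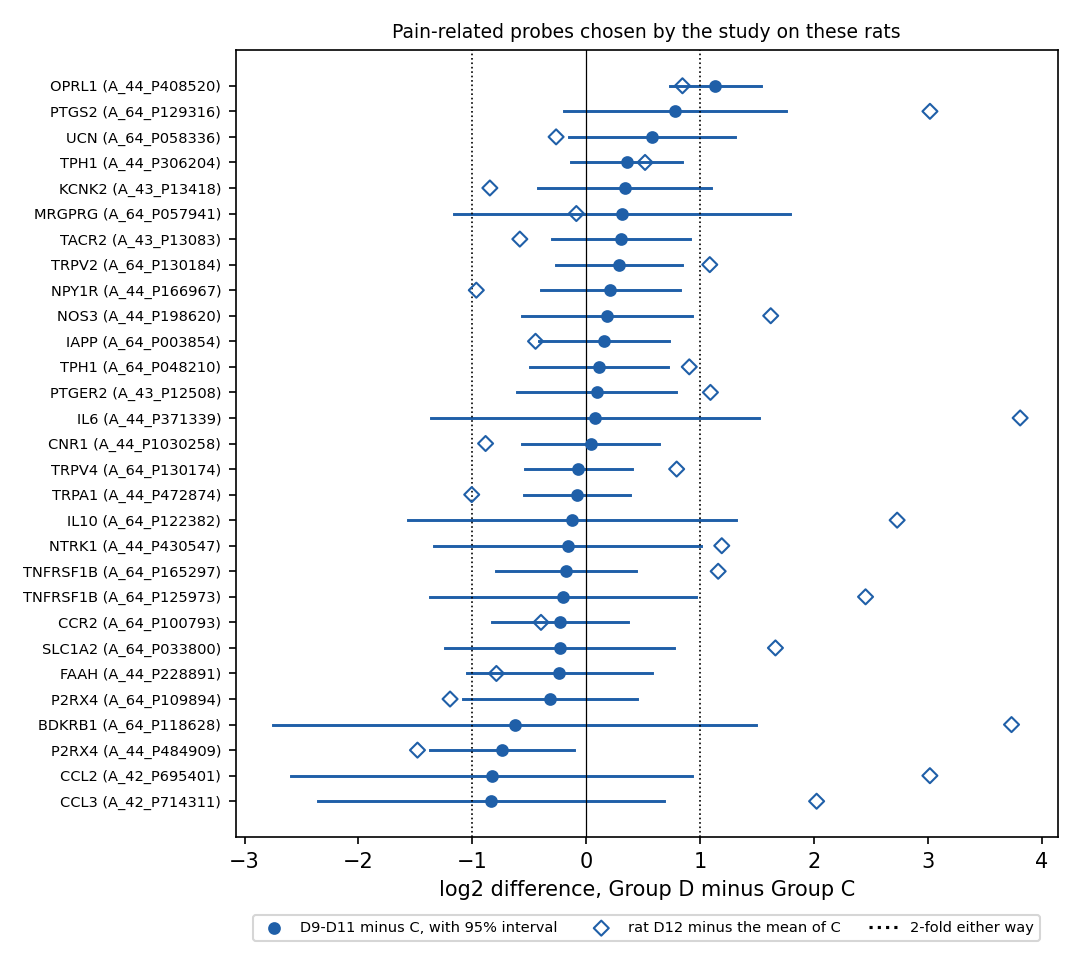
Difference of Group D (D9 to D11) minus Group C at the 29 pain probes of the study (blue points, log2 scale), with 95% intervals as lines. Open diamonds are rat D12 minus the mean of Group C, dotted lines mark 2-fold, and genes are named as the study names them. 13 of the 29 intervals lie inside 2-fold, and D12 lies far to the right for inflammatory genes such as CCL2.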

How the data were processed

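Colonic RNA was hybridised by the authors to 1-colour Agilent arrays (1 per rat), and the deposited values are the scanner's intensity for each spot, background-subtracted by Feature Extraction 10.5.1.1, with positions on rn4. The authors also deposited a table of log2 values, which was used as an alternative. For each array the log2 processed intensity minus its 75th percentile was taken without control and outlier spots, and replicate spots were averaged. Groups came from the labels. A linear model over the 3 groups and 11 arrays (without D12, as in the study) was fitted with limma 3.58.1 in R 4.3.3, with Benjamini-Hochberg adjustment over 30367 probes. Nothing says that rats came from separate litters, so p-values measure the spread between these rats. The step was tested on simulated data. The members and the 44 gene lists (919 genes, 884 measured) were chosen with earlier results of these data known. The genes named were those past the adjusted threshold, the 10 largest rises and 10 largest falls among non-overlapping probes with an unadjusted p of at most 0.01 and a signal well above background in all rats of Groups C and D (D9 to D11), up to 4 called members and the brightest member of each list, and the study's pain probes. Others were named after their values were seen. Promoters came from RefSeq. Alternatives were D12, background correction, scaling, the deposited table, filters, array weights, a replicate block and each rat left out.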

Additional observations from a re-analysis of the deposited data

Results flagged for a closer look

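In 17 of 174 groups of 4 rats, 1 rat lay far from the other 3. D12 was this rat in 10 of them and C2 in 5. For a single group of independent values, chance gives about 1 in 20. That rate does not apply to this count, since the 88 groups of list medians share rats. The other 86 groups were of genes called without D12, a choice that favours D9 to D11 lying close together. For list medians relative to the mean of Group C, C2 stood at 1.97 for T cell genes (others -0.79 to -0.33), 2.59 for B cell genes (-1.04 to -0.71), 1.03 for neutrophil genes (-0.36 to -0.31), 0.47 for wound matrix genes (-0.27 to -0.22) and -0.21 for xenobiotic genes (0.04 to 0.09). D12 stood at 1.41 for neutrophil genes (others of Group D -0.23 to -0.12), 1.37 for cell cycle genes (-0.28 to -0.01), 0.55 for Toll-like receptor and NFkB genes (-0.09 to -0.01), 0.53 for cytokines (-0.08 to -0.02), -0.43 for fatty acid oxidation (0.02 to 0.08) and -0.34 for alcohol dehydrogenase genes (-0.19 to -0.17). C3 stood at -0.18 for neurotrophin genes (0.04 to 0.08).

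Among single genes, D12 lay apart for Rab7b at -3.21 (others of Group D -6.39 to -6.04), Lilrb3l at -4.61 (-5.98 to -5.80), C1qc at 0.89 (0.42 to 0.46) and Ascl2 at -1.07 (0.19 to 0.42). C4 lay apart for the metalloproteinase Mmp25 at -5.23 (other controls -6.44 to -6.36).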

How the results depend on the processing

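The 43 named called genes came to 25 with all 12 arrays, 28 with a replicate block, 23 with only Groups C and D and D12, and 23 to 42 when 1 rat was left out, the lowest without D9 and 26 without D10. Of them 11 kept an unadjusted p of at most 0.01 and their direction in all 22 settings, Fkbp5, Ms4a2, Ascl3, Terc, Tmem14a and Cela1 among them. The 2 probes whose adjusted p was 0.05 or less, both also past 2-fold, became 0 under quantile normalization, under the replicate block, and in fits of Groups C and D only, with or without D12. They became 6, and 4 past 2-fold, in the authors' table. Leaving out 1 rat gave 0 to 10 for either count, with 0 without C1, M5, M7 or D10, 1 without C2 and 10 without D9 or D11. The 430 probes at the looser rule became 662 with array quality weights and 285 to 521 with 1 rat left out, the lowest without D9. The 112 probes by the methods' criterion became 29 after normexp and 0 after adjustment, and it was not run under the block or weights. Within 1.5-fold, 15911 probes were level instead of 24137. Same-numbered rats of Groups C and D correlated at -0.122 to 0.126 in their deviations (3 pairs), beside -0.0834 to 0.0976 in the 9 other pairs. So few pairs cannot show whether same-numbered rats share more than a number.

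With D12, in both fits, list medians moved to 0.7662 for mast cells, 0.2364 for MHC class I, 0.07951 for Toll-like receptor genes (from -0.08), 0.5098 for immediate early genes, 0.006514 for neuropeptides, -0.2398 for tight junctions and 0.03372 for squamous markers. Normexp gave 0.6067 for mast cells, 0.02231 for serotonin, -0.08432 for alcohol dehydrogenase and -0.1943 for mesothelium, and Il22 turned to 0.03169. A shift to the median gave 0.06565 for prostaglandin and 0.1439 for squamous genes, the authors' values 0.1109 and the mean of probes above background -0.05547 for opioid genes, the filter on dim probes 0.1022 for pancreatic markers, and the replicate block -0.1108 for alcohol dehydrogenase. With 1 rat left out, medians ran from 0.6926 to 1.104 for mast cells, 0.00267 to 0.118 for opioid, -0.05845 to 0.02231 for prostaglandin, 0.1211 to 0.3076 for enteric neuron, -0.2944 to -0.0999 for alcohol dehydrogenase, 0.0005417 to 0.09581 for squamous and -0.9182 to -0.2773 (without D11) for mesothelium genes. The cause was not tested. Probes near background limit what can be measured.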
